A study of Saccharomyces cerevisiae with 20 samples.

Results

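The 41 nuclear genes of oxidative phosphorylation were examined in yeast that had run out of glucose. They were taken by systematic name from the 8 tables of the study, which list 6921 genes in all. The rule used no measured value, but the members were chosen with earlier results of these data known. The set holds 3 NADH dehydrogenases, namely the internal enzyme NDI1 (YML120C) and the external enzymes NDE1 (YMR145C) and NDE2 (YDL085W). Succinate dehydrogenase, complex II, is represented by its 4 subunits SDH1 (YKL148C), SDH2 (YLL041C), SDH3 (YKL141W) and SDH4 (YDR178W). The cytochrome bc1 complex, complex III, has 9 members: CYT1 (YOR065W), COR1 (YBL045C), QCR2 (YPR191W), QCR6 (YFR033C), QCR7 (YDR529C), QCR8 (YJL166W), QCR9 (YGR183C), QCR10 (YHR001W-A) and RIP1 (YEL024W). CYC1 (YJR048W) encodes the main form of cytochrome c. Cytochrome c oxidase, complex IV, has 9 members: COX4 (YGL187C), COX5A (YNL052W), COX6 (YHR051W), COX7 (YMR256C), COX8 (YLR395C), COX9 (YDL067C), COX12 (YLR038C), COX13 (YGL191W) and COX26 (YDR119W-A). The ATP synthase has 15 members: ATP1 (YBL099W), ATP2 (YJR121W), ATP3 (YBR039W), ATP4 (YPL078C), ATP5 (YDR298C), ATP7 (YKL016C), ATP14 (YLR295C), ATP15 (YPL271W), ATP16 (YDL004W), ATP17 (YDR377W), ATP18 (YML081C-A), ATP19 (YOL077W-A), ATP20 (YPR020W), TIM11 (YDR322C-A) and the inhibitor INH1 (YDL181W).

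All strains were W303 yeast, and the deletion strains carried a drug resistance marker in place of TUP1, SDS3, XBP1 or ISW2 (Δtup1, Δsds3, Δxbp1 and Δisw2). Each of these and wild type was collected in rich medium (YPD) in a pair of states: diauxic shift, taken 2 hours past the exhaustion of glucose, and stationary phase, reached on day 3. There were 10 groups of 2 libraries, called A and B here, 20 libraries in all. Tup1 is a corepressor, Sds3 a subunit of the large Rpd3 histone deacetylase complex, Xbp1 a DNA-binding repressor of stress and quiescence, and Isw2 a chromatin remodeler.

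In yeast, electrons enter the respiratory chain without a proton-pumping complex I, through single-chain NADH dehydrogenases or through complex II. Complex III passes them to cytochrome c, complex IV reduces oxygen, and the ATP synthase uses the proton gradient that complexes III and IV build. Cells growing on glucose keep these genes low, and the switch to ethanol at diauxic shift depends on them. The CCAAT-binding Hap2/3/4/5 complex is their best known activator, with Hap4 as the subunit whose amount is controlled by the carbon source. A few core subunits of complexes III and IV and of the ATP synthase are encoded by mitochondrial DNA and are not among the members.

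Reads on genes ranged from 20963633 to 32558227 per library at diauxic shift, from 9994448 to 28421881 in library A at stationary phase and from 2543155 to 4424289 in library B. Each deleted gene had at most 8 reads in the libraries of its own deletion and at least 90 in every other library. The 4 genes taken as markers of stationary phase, SPG1, SPG4, HSP12 and HSP26, were not called between the phases in wild type. The Δsds3 libraries at diauxic shift stood apart from each other: 37.5% of genes differed at least 2-fold between A and B, against 5.34% to 9.09% in the other groups. Among the members, 17 of 41 (41.5%) differed at least 2-fold there, 12 being higher in library B and 5 lower. The members' count, their median and the members called in that group are therefore also given without single libraries. Library B of each deletion at stationary phase carries another strain number than library A. The study's methods describe cultures started from individual colonies, and it calls the replicates of Δtup1, Δsds3 and Δxbp1 biological. For Δisw2 it does not say so in the text used here, and p-values there measure the spread between its libraries. That spread may be technical at diauxic shift, whereas at stationary phase the Δisw2 libraries carry different strain numbers. Since the libraries are bulk RNA, fewer cells with a transcript and less of it per cell cannot be told apart.

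A gene was called where its Benjamini-Hochberg adjusted p-value over all genes tested was under 0.05 and its change at least 1.5-fold. The test was limma with 2 libraries against 2, after 1 was added to each normalized count and log2 taken, and the adjusted p-values below come from it unless another tool is named. An exact test on 2 against 2 libraries cannot give a p-value below 0.333. All 41 members passed the filter on low reads in every comparison. Of their 37-base stretches, none occurs elsewhere in the genome, so reads of the members and their close relatives can be told apart at the read length used.

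The stretch from 250 bases before to 50 after the start codon of each gene was searched on both strands of the R64 (sacCer3) assembly for the letters that the Hap complex is known to bind. The core CCAAT was present for 35 of 41 members (85.4%), against 43.3% of 6001 protein-coding genes. The longer form ACCAATNA, in which the core is contained, was present for 16 of 41 (39%) against 5.75%. CGGNNNTA, an element of the activator Hap1, was as common among the members (22%) as among all genes (22.1%), and CTCGA, the core bound by Xbp1, was found for 36.6% against 25.9%. A match describes letters in this window and not a bound site. The longer form is absent for COX26, ATP20, COX7, INH1, CYC1, ATP2, SDH3, SDH4 and ATP16, whose values per library are given below. The windows of 30 bases below, read 5′ to 3′ on the strand of the gene, show the longer form in capitals. They cover some of the 16 members that hold it. In those shown it lies 134 to 230 bases before the start codon. ATP19 and TIM11 carry it on the opposite strand, where its reverse complement is seen. The sequences are from RefSeq, and the strand of the element relative to the gene is given with each.
NDI1 (chrXIII:30017-30046, same strand): tattcattcggACCAATCAtatgaaggcat
COX8 (chrXII:910149-910178, same strand): aaacggtttgcACCAATCAtacgagagaag
COX12 (chrXII:225360-225389, same strand): tcataacattgACCAATCAattttcagaaa
ATP3 (chrII:315368-315397, same strand): cgtgatggagaACCAATGAgcggcgagtaa
ATP7 (chrXI:408149-408178, same strand): gtaaaagatacACCAATTAccacttgctgc
ATP15 (chrXVI:29934-29963, same strand): cttttatacgaACCAATGAaatttgatcct
ATP17 (chrIV:1228370-1228399, same strand): ttacggagagaACCAATCAtatcgaaggat
ATP19 (chrXV:185291-185320, opposite strand): gatctcgatggTGATTGGTcagagtccgct
TIM11 (chrIV:1112420-1112449, opposite strand): aatctccacgcTAATTGGTccgcggagcca

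In wild type, the members were among the most abundant transcripts of both phases. On the scale of normalized counts per kilobase of coding sequence, with the 20 libraries scaled together, their median stood at percentile 98.4 and 97.7 of all genes at diauxic shift (libraries A and B) and at 97.6 and 97.2 at stationary phase. At diauxic shift 41 of 41 were in the top 10% of genes in both libraries, and 38 of 41 at stationary phase. The lowest member was NDE1 or NDI1 in each of these libraries.

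The subunits of a complex were far from equal in level. COX26, a small subunit at the rim of cytochrome c oxidase, had the highest level per kilobase, with 159711 and 109371 at diauxic shift and 81846 and 86828 at stationary phase. COX6, a subunit of the same enzyme, had 22549 and 15378 at diauxic shift and 10315 and 10916 at stationary phase, the lowest of complex IV. Within complex IV the means therefore spanned 7.09-fold at diauxic shift and 7.94-fold at stationary phase. The ATP synthase spanned most, 12.6-fold and 15.2-fold, from ATP15, the epsilon subunit of the catalytic head, at 90583 and 127019 at diauxic shift, to ATP20, the g subunit of the dimer interface, at 10423 and 6811. In the order of the means at diauxic shift, COX26 and COX5A overlapped between libraries and so did COX5A and ATP15, whereas the last places belonged to NDE1 and NDI1, which also overlapped.

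**Figure D1:**
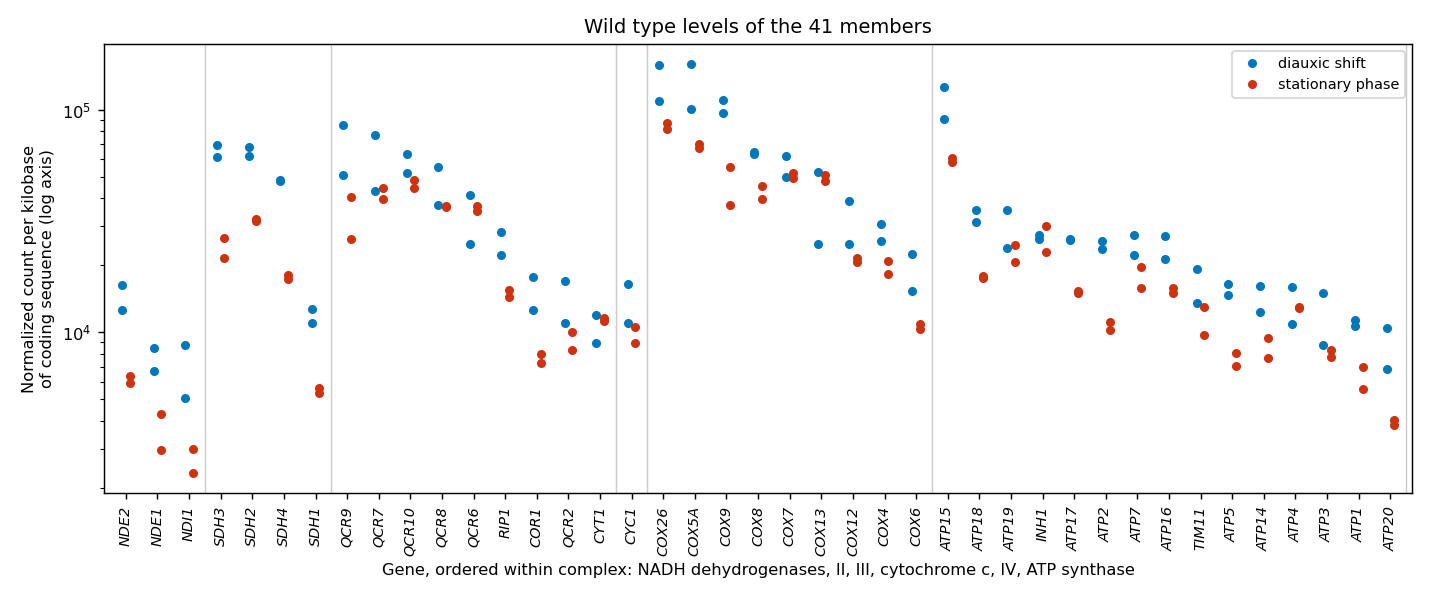
Normalized counts per kilobase of coding sequence (log axis) of the 41 members in wild type, with 1 point per library, blue at diauxic shift and red at stationary phase, ordered by level within each complex. The red points lie below both blue points for 33 of 41 members, against 32.9% of all genes tested, and COX26, COX5A and ATP15 are at the top in both phases.

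From diauxic shift to stationary phase, 12 members fell in wild type and none was called higher. For comparisons between phases the 20 libraries were scaled together and fitted in 1 limma model, whereas each comparison of a deletion with wild type stays within its own table, so that wild type counts are not on the same scale in different comparisons. Of 41, 12 fell, against 8.26% of the 6538 genes tested, and 0 rose, against 7.83% (limma; without adjustment 24 were lower and 0 higher at a p-value under 0.05, and edgeR called 12 and 0). The median log2 fold change was -0.73 over the members and -0.02 over all genes tested. Complex II had the lowest median, -1.27, with SDH3 and SDH4, its membrane anchors, called. SDH3 (YKL141W, chromosome XI from 179667 to 180263) stood at 36534 and 41632 normalized counts at diauxic shift and 12868 and 15883 at stationary phase (log2 fold change -1.45, standard error 0.41, adjusted p = 0.028). SDH4 (YDR178W, chromosome IV from 817950 to 818495) went from 26013 and 26308 to 9861 and 9491 (log2 fold change -1.44, standard error 0.41, adjusted p = 0.027). NDI1 (YML120C, chromosome XIII from 28266 to 29807), which oxidizes the NADH of the mitochondrial matrix, went from 13499 and 7772 to 3592 and 4602 (log2 fold change -1.33, standard error 0.37, adjusted p = 0.027). In these 3 genes the libraries of the phases did not overlap, and the members that fell in the other complexes were COR1 and RIP1 of complex III, COX6, COX8 and COX9 of complex IV, and ATP5, ATP14, ATP17 and ATP18 of the ATP synthase. At the other end, COX13 of complex IV stood at 20594 and 9733 at diauxic shift and 18672 and 19860 at stationary phase and was not called.

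This count rests on few libraries. It was 0 without library A or 1 without library B of stationary phase, 0 without library A and 5 without library B of diauxic shift, and 23 when both Δsds3 libraries of diauxic shift, which enter the shared estimate of spread, were left out. The share of all gene reads gives the same levels in another way: the members took up 5.44% and 3.87% of reads in wild type at diauxic shift and 2.92% and 2.91% at stationary phase.

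In Δtup1 at diauxic shift, cytochrome c and the catalytic beta subunit of the ATP synthase were the members that rose. Only these 2 of 41 were called higher, against 13.8% of 6295 genes, and 0 were called lower, against 6.27% (limma; 4 higher and 4 lower at an unadjusted p-value under 0.05, and 2 and 0 called by edgeR). CYC1 (YJR048W, chromosome X from 526335 to 526664) stood at 10311 and 6583 normalized counts in wild type and 28555 and 20536 in Δtup1 (log2 fold change 1.56, standard error 0.34, adjusted p = 0.0024). ATP2 (YJR121W, chromosome X from 647607 to 649142) stood at 75187 and 66222 in wild type and 182268 and 134243 in Δtup1 (log2 fold change 1.15, standard error 0.38, adjusted p = 0.035). Both Δtup1 libraries lay above both wild type libraries for either gene. The median of the members was -0.25 beside -0.02 for all genes, and it turned from -0.41 with library A of both groups alone to 0.03 with library B alone. Complex II had the highest median of the multi-subunit complexes, 0.53, and complex IV the lowest, -0.33, with no member of either called. SDH4 had the largest value among members not called, with 49341 and 47861 in wild type and 88447 and 92309 in Δtup1 (adjusted p = 0.082), and ATP7, a stalk subunit, the lowest, with 27142 and 21165 in wild type and 14337 and 11252 in Δtup1 (adjusted p = 0.057). Leaving out Δtup1 library A or library B left 1 member called. Leaving out wild type library B added 1 lower member, for 3 in all.

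At stationary phase the Δtup1 members split, with some subunits of complexes II, III and IV and of the ATP synthase higher and others lower. Of 41 members, 8 rose and 6 fell, against 25.7% and 24% of 6035 genes; whether these shares differ was not tested. The median was 0.13, beside 0.0025 for all genes. NDI1 had the largest rise, from 2246 and 2895 normalized counts in wild type to 9850 and 7934 in Δtup1 (log2 fold change 1.79, standard error 0.22, adjusted p = 7.4e-05). CYC1 rose from 2179 and 1864 to 6890 and 4371 (log2 fold change 1.44, standard error 0.24, adjusted p = 0.0006). The other members that rose were ATP2 (1.26), COR1 (1.21) and QCR2 (0.66), the core subunits of complex III, SDH1 (0.86), the flavoprotein of complex II, COX9 (0.77) and QCR9 (0.76). COX8 (YLR395C, chromosome XII from 909729 to 909965), a small subunit of complex IV, fell from 6738 and 5940 to 2864 and 2561 (log2 fold change -1.22, standard error 0.20, adjusted p = 0.00054). ATP15 (YPL271W, chromosome XVI from 30079 to 30267) fell from 6885 and 7227 to 3531 and 3776 (log2 fold change -0.95, standard error 0.20, adjusted p = 0.0024). SDH3 (-0.95), ATP19 (-0.91), QCR10 (-0.77) and ATP7 (-0.70) also fell. Within complex II, the flavoprotein SDH1 was thus higher and its membrane anchor SDH3 lower in the same libraries. Without single libraries the count ranged from 10 to 19.

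Δsds3 was the deletion in which the members stood lowest at diauxic shift, and complex IV and the ATP synthase held every call. Of 41 members, 11 fell, against 0.852% of 6340 genes, and 0 rose, against 1.94% (limma; 30 lower and 0 higher at an unadjusted p-value under 0.05, and 7 and 0 called by edgeR). The median log2 fold change was -1.87, beside -0.06 for all genes. Both Δsds3 libraries lay below both wild type libraries for 36 of 41 members, against 28.1% of all genes tested. ATP20 (YPR020W, chromosome XVI from 599870 to 600217) fell most, from 7825 and 4826 normalized counts in wild type to 951 and 172 in Δsds3 (log2 fold change -3.92, standard error 0.75, adjusted p = 0.04). COX7 (YMR256C, chromosome XIII from 778945 to 779127) fell from 24407 and 18644 to 3963 and 670.0 (log2 fold change -3.71, standard error 0.75, adjusted p = 0.047). In both genes library B held the lower value by far, and the gap to wild type was still several-fold in library A. The other members that fell were COX26 (-3.30), COX12 (-2.68) and COX8 (-2.31) of complex IV, and INH1 (-3.25), ATP19 (-3.25), ATP3 (-3.10), TIM11 (-2.48), ATP17 (-2.29) and ATP18 (-2.10) of the ATP synthase. The calls also went with length: 10 of 27 members under 600 bases of coding sequence fell (median -2.09) and 1 of 14 longer ones (median -1.40). Over all genes tested 2.54% of short and 0.492% of longer genes fell, with medians of -0.53 and -0.01. The part of length was not tested.

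The Δsds3 libraries of diauxic shift differed from each other in both directions, also within a complex. In complex II, which was not called, library A stood well below wild type and library B closer to it: SDH1 had 14860 and 45483 in Δsds3 against 52589 and 42956 in wild type, and SDH3 had 18336 and 62948 against 78810 and 84768. NDE2 had the widest gap upward, with library B 3.94 times library A. ATP2 and ATP3, which sit together in the catalytic head of the ATP synthase, moved apart, with library B at 3.26 times library A for ATP2 and 0.272 times for ATP3. The number of members called lower was 27 without Δsds3 library A, 37 without Δsds3 library B, 3 without wild type library A and 5 without wild type library B, where a lone library is assumed to vary like the others. The shares of all genes called lower were then 21.3%, 15%, 0.325% and 0.233%, so that the background moved with the count. Over these omissions the log2 fold change of ATP20 ranged from -5.15 to -2.69 and that of COX7 from -4.99 to -2.43, so both stayed well below 0. The other 9 of the 11 called members ranged from -4.04 to -2.27 without library A and from -3.75 to -1.84 without library B, and all 11 were called lower in either case. HAP4 was at -0.58 and -0.10, AAC1 at -2.03 and -2.90 and SHH4 at -2.19 and -3.65 without library A and without library B.

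At stationary phase, where the Δsds3 libraries were close to each other, the lower levels covered nearly the whole set. In this comparison 34 of 41 members fell, against 25.4% of 6211 genes, and 0 rose, against 27.6% (limma; 0 higher at an unadjusted p-value under 0.05 and 0 called by edgeR, which called 33 lower). By complex, 9 of 9 members of complex IV fell, 13 of 15 of the ATP synthase, 7 of 9 of complex III, 3 of 4 of complex II, CYC1, and 1 of 3 NADH dehydrogenases. The median was -1.18 over the members and within 0.01 of 0 over all genes, and complex IV had the lowest median of the complexes, -1.67. COX26 (YDR119W-A, chromosome IV from 691014 to 691214) fell most, from 12894 and 13386 normalized counts in wild type to 1442 and 1445 (log2 fold change -3.19, standard error 0.15, adjusted p = 3.3e-07). INH1 (YDL181W, chromosome IV from 135179 to 135436), which blocks the ATP synthase from running in reverse, fell from 4643 and 5952 to 1246 and 1240 (log2 fold change -2.08, standard error 0.16, adjusted p = 4.1e-06). The 2 values of each group lay within a narrow band in both genes, far from the other group. The 7 members not called were NDI1 (0.23), NDE1 (0.31), SDH1 (-0.12), COR1 (-0.47), QCR2 (-0.38), ATP1 (-0.48) and ATP2 (-0.01), a group that includes the large catalytic and core subunits. These 7 have 1107 to 1923 bases of coding sequence, whereas the 9 members of complex IV have 180 to 468. The complex of a member and its length thus went together. All 11 members that fell at diauxic shift fell here too; the comparisons use different libraries of both strains. Without single libraries the count ranged from 31 to 37.

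**Figure D2:**
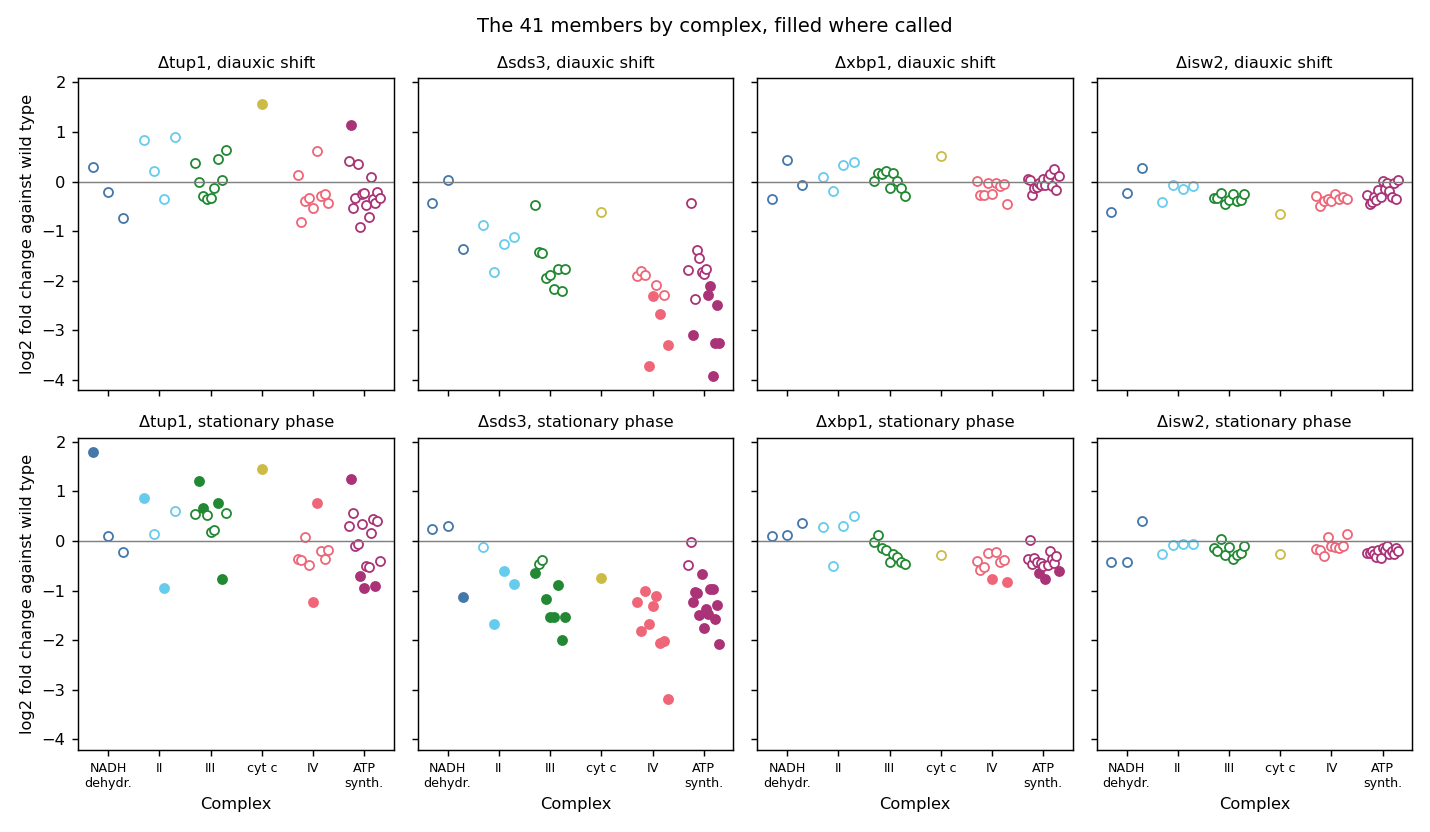
The log2 fold change of each of the 41 members against wild type, by complex (axis: NADH dehydrogenases, II, III, cytochrome c, IV, ATP synthase), for the 4 deletions at diauxic shift (top) and stationary phase (bottom), with called members filled and others open. The filled points of Δsds3 all lie below 0 (11 at the top, 34 at the bottom), those of Δtup1 at stationary phase lie on both sides (8 above and 6 below), and Δisw2 has none.

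In Δxbp1 no member was called at diauxic shift and 5 were lower at stationary phase. At diauxic shift 0 of 41 were called higher and 0 lower, against 0.432% and 0.032% of 6243 genes (limma; at an unadjusted p-value under 0.05 0 and 0, and by edgeR 0 and 0). Their log2 fold changes there ran from -0.46 for COX26 to 0.51 for CYC1, with a median of -0.03. At stationary phase 5 members fell, against 11.5% of 5968 genes, a share (12.2%) close to that background, and 0 rose, against 12.3% (limma; 1 higher and 20 lower at an unadjusted p-value under 0.05, and 0 and 5 by edgeR). COX26 stood at 9471 and 9835 in wild type and 5297 and 5582 in Δxbp1 (log2 fold change -0.83, standard error 0.17, adjusted p = 0.0038). ATP16 (YDL004W, chromosome IV from 443029 to 443511), the delta subunit of the catalytic head, stood at 4381 and 4084 in wild type and 2350 and 2634 in Δxbp1 (log2 fold change -0.77, standard error 0.16, adjusted p = 0.0032). COX8 (-0.76), ATP7 (-0.65) and INH1 (-0.60) were the other members that fell. Over all members the median was -0.36, beside -0.01 for all genes, and both Δxbp1 libraries lay below both wild type libraries for 27 of 41 members, against 33.9% of all genes. Complex II and the NADH dehydrogenases had medians above 0, at 0.29 and 0.11, with no member called. Without Δxbp1 library B at stationary phase 13 members were called lower, and without any other library between 4 and 6.

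In Δisw2 no member was called at either phase. At diauxic shift the background was 0.064% of 6247 genes higher and 0.032% lower, and at stationary phase 1.21% of 5953 higher and 0.706% lower (limma). At an unadjusted p-value under 0.05, 0 members were higher and 0 lower at diauxic shift, and 1 and 4 at stationary phase, and edgeR called 0 and 0. The medians were -0.31 and -0.19, and 38 of 41 members had a value under 0 at diauxic shift and 37 at stationary phase. Of all genes tested, 49.7% had a value above 0 at diauxic shift and 49.9% at stationary phase. The members ran from -0.65 (CYC1) to 0.27 (NDE2) at diauxic shift and from -0.43 (NDE1) to 0.40 (NDE2) at stationary phase. NDE2, an NADH dehydrogenase facing the intermembrane space, had 6068 and 5537 normalized counts in wild type and 8086 and 7258 in Δisw2 at stationary phase (adjusted p = 0.24). Without wild type library B at stationary phase 1 member was called lower. The small values under 0 share the wild type libraries with the other deletions of the phase.

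Between the phases, members fell and none was called higher in Δtup1, Δxbp1 and Δisw2, while in Δsds3 4 rose. In Δtup1 11 of 41 fell from diauxic shift to stationary phase, against 14% of 6538 genes, and 0 rose, against 12.9% (1 at an unadjusted p-value under 0.05 and 0 by edgeR). SDH3 had the largest fall there, from 30929 and 29817 to 8837 and 6379 (log2 fold change -2.02, standard error 0.41, adjusted p = 0.0038). In Δxbp1 23 fell, against 11.2%, and 0 rose, against 9.05% (0 at an unadjusted p-value under 0.05 and 0 by edgeR), with a median of -1.08. In Δisw2 11 fell, against 8.41%, and 0 rose, against 7.91% (0 at an unadjusted p-value under 0.05 and 0 by edgeR). Genes under 600 bases fell more often than longer ones in Δtup1 (22.5% against 12.4%) and Δxbp1 (22.4% against 9.54%), unlike Δisw2 (8.87% against 9.17%). Of short and longer members, 29.6% and 21.4% fell in Δtup1, 59.3% and 50% in Δxbp1, and 25.9% and 28.6% in Δisw2. Medians in Δtup1 were -0.459 for short members, beside -0.445 for short genes, and -0.717 for longer members, beside 0.092. These differences were not tested. Δsds3 had 4 members that rose, against 3.3%, and 0 that fell, against 3.96% (8 higher and 7 lower at an unadjusted p-value under 0.05, 2 and 1 by edgeR, and 0 and 0 with the replicate block). Those that rose were ATP4 (1.26) and INH1 (1.11), also called by edgeR, and COX7 (1.87) and ATP20 (1.81), which were not (edgeR adjusted p = 0.11 and 0.092), of which COX7, ATP20 and INH1 are among the members that fell at diauxic shift; both comparisons use the same Δsds3 libraries of diauxic shift. In that deletion the count was 23, with 8 higher and 15 lower, without library A of diauxic shift, and 0 without any other single library. Leaving out single libraries gave counts from 3 to 12 in Δtup1 (3 without library A of diauxic shift, 4 without library B of stationary phase), from 6 to 10 in Δxbp1 (6 without library A and 10 without library B of stationary phase, 8 and 10 for diauxic shift) and from 0 to 2 in Δisw2 (0 without library A and 2 without library B of either phase). Without both Δsds3 libraries of diauxic shift, the counts were 19 in Δtup1, 35 in Δxbp1 and 21 in Δisw2.

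The difference between a deletion's change at stationary phase and at diauxic shift was tested as an interaction term over the 20 libraries. In Δsds3 1 of 41 members was called with a higher change at stationary phase, against 0.872% of 6538 genes, and 0 with a lower one, against 1.16% (16 and 0 at an unadjusted p-value under 0.05, 0 and 0 by edgeR). The gene was ATP20, whose log2 fold change was -3.92 at diauxic shift and -0.97 at stationary phase (difference 2.91, standard error 0.68, adjusted p = 0.041). The count was 14 without Δsds3 library A of diauxic shift, 6 without library B, and 0 without any other single library of the strain or of wild type. In Δtup1 0 and 0 members were called higher and lower, against 2.71% and 3.2% (3 and 2 at an unadjusted p-value under 0.05, 0 by edgeR), and 5 when both Δsds3 libraries of diauxic shift were left out. In Δxbp1 the counts were 0 and 0, against 0.0153% and 0%, and in Δisw2 0 and 0, against 0% and 0% (for both, 0 at an unadjusted p-value under 0.05 and 0 by edgeR). For the other 40 members, a change called at 1 phase and not at the other is therefore not shown to differ between the phases.

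The share of all gene reads that fell on the members sums up these levels. At diauxic shift it was 4.17% and 3.67% in Δtup1, 4.77% and 4.06% in Δxbp1, 4.09% and 3.24% in Δisw2, and 1.85% and 2.26% in Δsds3. At stationary phase it was 3.27% and 3.03% in Δtup1, 2.6% and 2.76% in Δxbp1, 2.62% and 2.65% in Δisw2, and 2.12% and 1.88% in Δsds3. The Δsds3 libraries were the lowest of each phase, and complex IV had the widest gap to wild type of the complexes, with 0.36% and 0.299% of reads at diauxic shift against 1.5% and 0.919% in wild type. A share depends on all other genes of the library, so it is a description and was not tested.

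**Figure D3:**
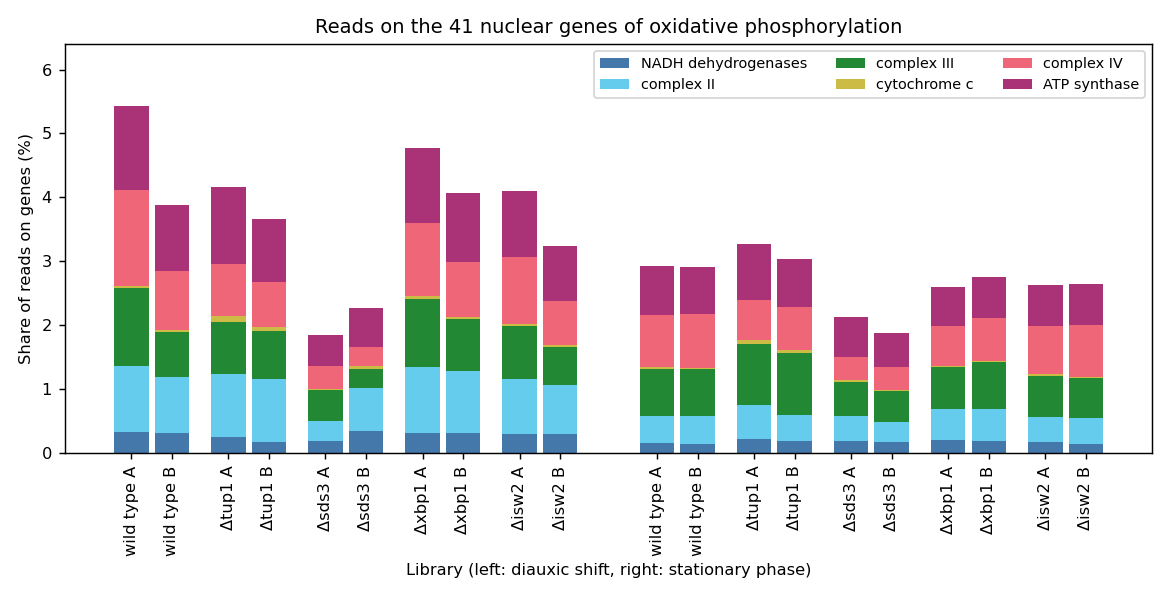
Percent of all reads on genes that fell on the 41 members in each of the 20 libraries, stacked by complex, with diauxic shift on the left and stationary phase on the right. The bars of Δsds3 at diauxic shift (1.85% and 2.26%) are the shortest of that phase, and wild type goes from 5.44% and 3.87% to 2.92% and 2.91%.

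The members differ in size, from 180 to 1923 bases of coding sequence, and at stationary phase the shorter ones stood lower in 3 deletions. In Δsds3 27 of 27 members under 600 bases fell, with a median of -1.36, and 7 of 14 longer ones, with a median of -0.56. In Δtup1 the members that rose had a median coding length of 1240 bases and those that fell one of 235.5 bases. Among all genes tested, length moved with the change in the same direction. The range was smaller than among the members in Δsds3 and Δtup1 and similar to it in Δxbp1. In Δsds3 the medians were -0.37 for 1081 short genes and 0.04 for 4666 long ones, and 40.3% and 23% of them fell. In Δtup1 the medians over all genes were -0.26 and 0.06, and in Δxbp1 -0.29 and 0.03, beside -0.42 and -0.08 for its members. The Δtup1 members came to -0.21 and 0.56. Members of both length classes in Δsds3 thus lay below all genes of their class, while in Δtup1 the short members lay close to the short genes in general. The length of 600 bases was chosen after the values were seen, these differences were not tested, and the part that transcript length has in the library preparation was not tested.

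**Figure D4:**
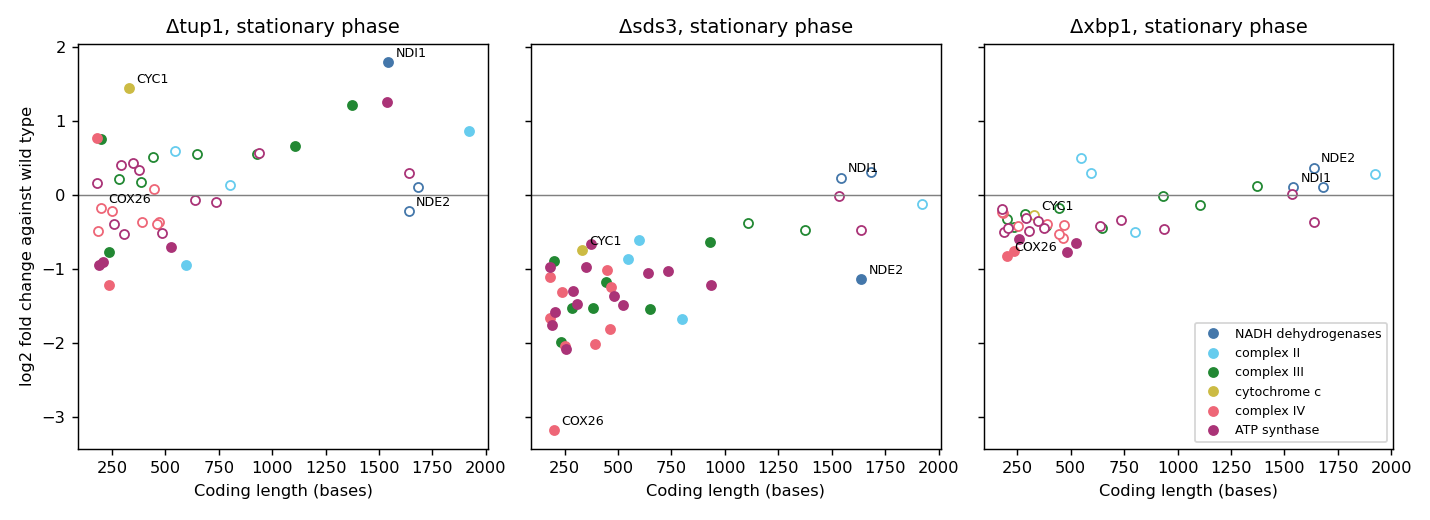
The log2 fold change of each member against wild type at stationary phase, plotted against its coding length in bases, for Δtup1, Δsds3 and Δxbp1, colored by complex, with called members filled and others open. In Δsds3 every member under 600 bases is filled and below 0, and in Δtup1 most of the members at the lowest values are short.

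Several members have an isoform that yeast uses under other conditions, and these pairs were followed in all 20 libraries, scaled together. COX5A and COX5B encode alternative forms of subunit 5 of cytochrome c oxidase, used with and without oxygen respectively. At diauxic shift COX5A stood at 73930 and 46831 in wild type, 40191 and 27535 in Δtup1, 12229 and 24814 in Δsds3, 59378 and 40373 in Δxbp1 and 53005 and 32948 in Δisw2 (libraries A and B). At stationary phase it stood at 30997 and 32553 in wild type, 26116 and 23045 in Δtup1, 9758 and 8400 in Δsds3, 19804 and 22193 in Δxbp1 and 26459 and 29156 in Δisw2. Both Δsds3 libraries lay below all libraries of the other strains at either phase. It fell in Δsds3 at stationary phase (log2 fold change -1.82, standard error 0.20, adjusted p = 2.7e-05) and between the phases in Δxbp1 (-1.22, adjusted p = 0.033), and in no other of these comparisons. COX5B (YIL111W) was at 1366 and 757 in wild type, 2671 and 4354 in Δtup1, 1489 and 2003 in Δsds3, 1543 and 1265 in Δxbp1 and 1177 and 804 in Δisw2 at diauxic shift. At stationary phase it was at 489 and 539 in wild type, 4406 and 5704 in Δtup1, 622 and 749 in Δsds3, 1163 and 1210 in Δxbp1 and 830.0 and 823 in Δisw2. The Δtup1 libraries were the highest at both phases and did not overlap with any other strain. It rose in Δtup1 at both phases (1.75, adjusted p = 0.00089, and 3.27, adjusted p = 9.2e-07), by more at stationary phase (difference 1.54, adjusted p = 0.044), and in Δxbp1 at stationary phase (1.23, adjusted p = 0.00017). It fell between the phases in wild type (-0.99, adjusted p = 0.037) and in Δsds3 (-1.34, adjusted p = 0.022). COX5A had no call in Δtup1.

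CYC1 and CYC7 encode the isoforms of cytochrome c, of which CYC7 is the form raised when oxygen is low. At diauxic shift CYC1 was at 5436 and 3618 in wild type, 15190 and 11073 in Δtup1, 1587 and 5627 in Δsds3, 6884 and 5810 in Δxbp1 and 3141 and 2560 in Δisw2. At stationary phase it was at 3485 and 2963 in wild type, 11043 and 7105 in Δtup1, 2456 and 1501 in Δsds3, 2393 and 2861 in Δxbp1 and 3031 and 2335 in Δisw2. Here too the Δtup1 libraries were above those of every other strain at both phases. Beside the rises in Δtup1, it fell in Δsds3 at stationary phase (-0.75, adjusted p = 0.013), and at diauxic shift the Δsds3 libraries lay on both sides of wild type. CYC7 (YEL039C) was at 6204 and 2750 in wild type, 23404 and 25615 in Δtup1, 5876 and 1979 in Δsds3, 5875 and 4218 in Δxbp1 and 5076 and 3505 in Δisw2 at diauxic shift. At stationary phase it was at 3122 and 3823 in wild type, 21834 and 30222 in Δtup1, 1378 and 1352 in Δsds3, 2579 and 2720 in Δxbp1 and 3939 and 4610 in Δisw2. Δtup1 was highest at both phases, and the Δsds3 libraries were the lowest at stationary phase. It rose in Δtup1 at both phases (2.57, adjusted p = 2.9e-05, and 2.88, adjusted p = 3.6e-06) and fell in Δsds3 at stationary phase (-1.34, adjusted p = 3.4e-05). Both isoforms of cytochrome c were thus higher in Δtup1, where of the subunit 5 pair COX5B alone was.

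NDE1 and NDE2 encode the external NADH dehydrogenases, and SDH1 has a close relative, YJL045W, named SDH9 in RefSeq. At diauxic shift NDE1 was at 11229 and 14350 in wild type, 14165 and 8425 in Δtup1, 8159 and 21459 in Δsds3, 16626 and 17721 in Δxbp1 and 10198 and 11510 in Δisw2. It was at 7211 and 4999 in wild type, 8303 and 5153 in Δtup1, 8632 and 6427 in Δsds3, 7045 and 5802 in Δxbp1 and 5018 and 3958 in Δisw2 at stationary phase. The strains overlapped at stationary phase, and Δsds3 at diauxic shift held both the lowest value of NDE1 and the highest. NDE2 was at 20606 and 26844 in wild type, 15178 and 13194 in Δtup1, 4719 and 18936 in Δsds3, 22606 and 22234 in Δxbp1 and 28219 and 28387 in Δisw2 at diauxic shift. It was at 10466 and 9677 in wild type, 9183 and 8323 in Δtup1, 4684 and 4489 in Δsds3, 12711 and 12823 in Δxbp1 and 13986 and 12595 in Δisw2 at stationary phase. Δsds3 held the lowest NDE2 values of stationary phase, with both libraries below every other. NDE2 fell in Δsds3 at stationary phase (-1.14, adjusted p = 0.00014), where NDE1 had 0.31 (adjusted p = 0.25), and NDE1 fell between the phases in Δxbp1 (-1.42) and Δisw2 (-1.28). With the replicate block, 0 NADH dehydrogenases were called lower between the phases in Δxbp1 or Δisw2, so both calls of NDE1 were lost. SDH1 was at 24379 and 21097 in wild type, 46090 and 35128 in Δtup1, 7214 and 22477 in Δsds3, 23520 and 24922 in Δxbp1 and 16717 and 17201 in Δisw2 at diauxic shift. At stationary phase SDH1 was at 10311 and 10799 in wild type, 23539 and 15935 in Δtup1, 11652 and 8112 in Δsds3, 11562 and 13822 in Δxbp1 and 9404 and 8276 in Δisw2. Δtup1 had the highest values of SDH1 at both phases. YJL045W was at 14332 and 19177 in wild type, 15066 and 11479 in Δtup1, 3541 and 7988 in Δsds3, 18231 and 15725 in Δxbp1 and 19772 and 18264 in Δisw2 at diauxic shift. At stationary phase YJL045W was at 8146 and 9175 in wild type, 5976 and 5401 in Δtup1, 2090 and 2049 in Δsds3, 7323 and 7323 in Δxbp1 and 8311 and 10320 in Δisw2. Δsds3 had the lowest values of YJL045W at both phases. It fell in Δsds3 (-2.07, adjusted p = 2.6e-06) and Δtup1 (-0.62, adjusted p = 0.024) at stationary phase, where SDH1 had -0.12 and 0.86, and it fell between the phases in all 5 strains, from -1.36 in Δsds3 to -0.94 in wild type. In Δisw2 the fall of YJL045W between the phases was not called with the replicate block. In Δtup1 at stationary phase the pair was called in opposite directions, and in Δsds3 the relative fell while SDH1 had no call.

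**Figure D5:**
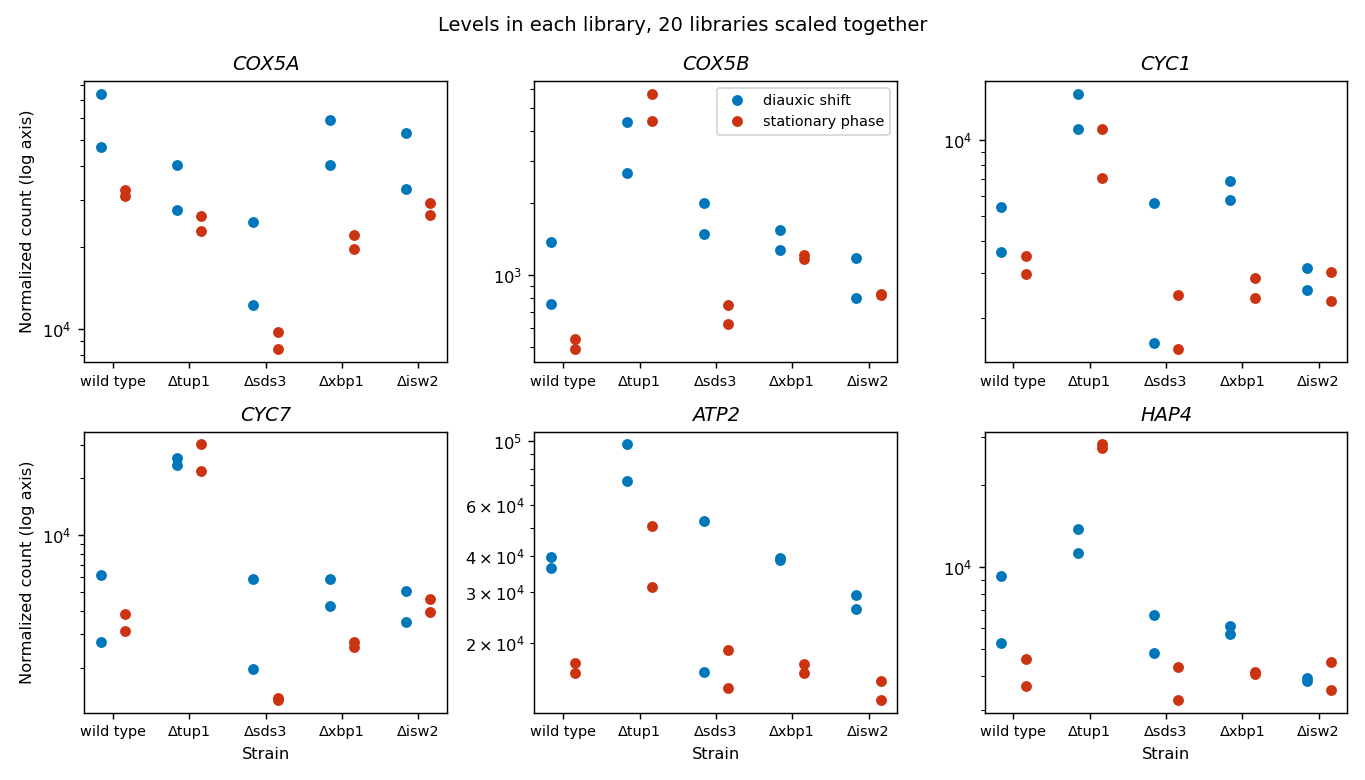
Normalized counts (log axis, 20 libraries scaled together) of the isoform pairs COX5A and COX5B and CYC1 and CYC7, of ATP2 and of the activator gene HAP4, with 1 point per library for each strain, blue at diauxic shift and red at stationary phase. COX5B, CYC7 and HAP4 have their highest points in Δtup1, and COX5A its lowest points in Δsds3 at stationary phase.

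HAP4 (YKL109W) encodes the activating subunit of the Hap complex. At diauxic shift it was at 9283 and 5282 in wild type, 11292 and 13773 in Δtup1, 6667 and 4846 in Δsds3, 5704 and 6096 in Δxbp1 and 3845 and 3940 in Δisw2. At stationary phase it was at 3668 and 4605 in wild type, 27228 and 28174 in Δtup1, 4319 and 3266 in Δsds3, 4126 and 4055 in Δxbp1 and 4489 and 3546 in Δisw2. The Δtup1 libraries lay above all others at both phases. It rose in Δtup1 at stationary phase (log2 fold change 2.73, standard error 0.21, adjusted p = 3.1e-06), and by more than at diauxic shift, where it was not called (0.84, adjusted p = 0.1; difference 1.92, adjusted p = 0.01). In Δsds3 it had -0.13 at stationary phase (adjusted p = 0.54) and -0.34 at diauxic shift (adjusted p = 0.73), with overlapping libraries at both phases. Its values were -0.25 and 0.02 in Δxbp1 and -0.85 and -0.04 in Δisw2, with no call. Of the members with ACCAATNA near the start codon, 1 of 16 rose and 4 fell in Δtup1 at stationary phase, and of those without it 7 of 25 rose and 2 fell, beside 25.7% and 24% of all genes. In Δsds3 at stationary phase 14 of 16 members with the element fell and 20 of 25 without it, with medians of -1.39 and -1.05, beside 25.4% of all genes. These differences between members with and without the element were not tested.

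The wider pathway was followed through lists of partner genes, assembly factors, the citric acid cycle and regulators. Of 41 factors that assemble complexes II to IV, cytochrome c and the ATP synthase, 9 rose and 0 fell in Δtup1 at diauxic shift (median 0.67; 0 lower at an unadjusted p-value under 0.05 and 0 by edgeR), beside 13.8% and 6.27% of all genes, and 10 rose and 4 fell at stationary phase, beside 25.7% and 24%. MSS51, which is needed to translate COX1, and COX15, which helps make heme A, rose in Δtup1 at both phases (2.06 and 1.32 for MSS51, 1.22 and 0.99 for COX15). In Δsds3 at stationary phase 26 of the 41 fell (median -0.86), beside 25.4% of all genes, as did 12 in Δxbp1, beside 11.5%, and 3 in Δisw2, beside 0.706%. Between the phases in wild type 7 rose and 1 fell, beside 7.83% and 8.26%, with a median of 0.28 where the members had -0.73; edgeR called 5 higher and limma with the replicate block 2.

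The 16 partner genes hold the isoforms above, carriers and other dehydrogenases. The largest change among them was that of AAC3 (YBR085W), an ADP/ATP carrier gene used at low oxygen, singled out after its values were seen and low in wild type; reads it may share with its relatives PET9 and AAC1 make its level uncertain. At diauxic shift it stood at 8.03 and 15.4 normalized counts in wild type and 449 and 313 in Δtup1 (log2 fold change 4.95, standard error 0.45, adjusted p = 2.6e-08), and in the Δsds3 table at 9.13 and 17.3 in wild type and 346 and 507 in Δsds3 (log2 fold change 4.95, standard error 0.66, adjusted p = 0.022). At stationary phase wild type was at or near 0 (2.42 and 0 in the Δtup1 table), beside 35.6 and 44.2 in Δtup1 and, in its own table, 93.7 and 85.2 in Δsds3, so no fold is given. MIR1, the phosphate carrier of the inner membrane, rose in Δtup1 at both phases, from 30374 and 25154 normalized counts in wild type to 77977 and 76708 at diauxic shift (log2 fold change 1.48, standard error 0.35, adjusted p = 0.0041) and from 6179 and 6051 to 23868 and 17883 at stationary phase (log2 fold change 1.76, standard error 0.23, adjusted p = 9.7e-05). PET9, the main ADP/ATP carrier, rose there too (1.51 and 1.00), and AAC1, a minor carrier, fell in Δtup1 at stationary phase (-2.35) and in Δsds3 at both phases (-2.46 and -2.45). SHH4, a relative of SDH4, fell in Δsds3 at both phases (-2.92 and -3.43) and in Δtup1 at stationary phase (-1.80). The lactate dehydrogenase genes DLD1 and CYB2, whose enzymes pass electrons to cytochrome c, rose in Δtup1 (1.19 and 1.36) and Δxbp1 (0.86 and 1.03) at stationary phase. Over the whole list 7 rose and 6 fell in Δtup1, 1 rose and 9 fell in Δsds3 and, of 15 tested, 3 rose and 2 fell in Δxbp1 at stationary phase, beside the shares of all genes given above for those comparisons. Of 11 citric acid cycle genes 1 rose and 2 fell in Δtup1 at that phase, beside 25.7% and 24% of all genes. In Δsds3 1 rose and 5 fell, beside 27.6% and 25.4%, and in Δxbp1 1 rose and 3 fell, beside 12.3% and 11.5%. LSC1, a subunit of succinyl-CoA ligase, was the gene that rose in Δsds3 and in Δxbp1 (1.17 and 1.52), while ACO1, the aconitase gene, fell in both (-1.63 and -0.87).

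Of 8 regulator genes, 7 rose in Δtup1 at stationary phase, beside 25.7% of all genes, with HAP5 as the exception (0.29). ROX1, a repressor of hypoxic genes, had the largest rise, from 886 and 1150 to 7202 and 9041 (7.99-fold, adjusted p = 2.2e-06), and it also rose at diauxic shift (log2 fold change 1.78). HAP3, which encodes a DNA-binding subunit of the Hap complex, rose with a log2 fold change of 2.08. In Δsds3 5 of the 8 fell at stationary phase, HAP1, HAP2, HAP5, ROX1 and MIG1, beside 25.4% of all genes. In Δxbp1 3 rose, HAP1, HAP3 and MIG1, beside 12.3%. Of the 7 mitochondrially encoded subunits listed, the libraries held 11 to 450 reads in sum, so that they are not described further.

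Across the 8 comparisons of a deletion with wild type, 39 of 41 members were called at least once (95.1%, against 81.1% of the 5910 genes tested in all 8; the difference was not tested), and NDE1 and ATP1 never. COX8 was called lower most often, in 4 of the 8, and COX26, ATP7, ATP19 and INH1 were called lower in 3. CYC1 and ATP2 were called higher in both Δtup1 comparisons, and no member was called higher outside Δtup1. ATP7 had a value under 0 in 8 of 8 comparisons, as had COX5A, COX8, COX12, COX13, ATP4 and ATP16. The share of all genes under 0 in 8 of 8 was not computed. These comparisons share the wild type libraries within a phase, so they do not add up as independent evidence.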

How the data were processed

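RNA was extracted with hot acid phenol, and poly-A libraries were made with the NuGEN Universal Plus mRNA kit and sequenced as paired-end reads. Per the submitters' processing notes, the authors aligned to sacCer3 with Bowtie2 and used DESeq2 (versions are not given in the sources used here), and they deposited 8 tables of normalized signal, meaning gene counts divided by DESeq2 size factors, for 2 libraries of a deletion and 2 of wild type. The authors' mean, fold change, error, statistic and p-value columns in these tables were not used. Whole reads were recovered by dividing by the step of each column (100% of values whole within 0.1).

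Within each table, limma 3.58.1 (R 4.3.3) was run with a mean trend on log2(normalized count + 1), after edgeR 4.0.16 filterByExpr, with Benjamini-Hochberg adjustment. Fold changes are on that scale. Tables were normalized separately, so changes between phases and interactions were tested with limma on the recovered reads of all 20 libraries, scaled together by median of ratios. Alternatives were edgeR's quasi-likelihood test on recovered reads, TMM scaling, a pseudocount of 5, no filter, no fold minimum, a replicate block, a pooled fit per phase, and leaving out each library. The scripts were tested on simulated data.

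Libraries ending in the same number deviated together in 10 of 10 pairs of groups at stationary phase (correlation 0.127 to 0.280, median 0.157). At diauxic shift they did so in 6 of 10 (-0.133 to 0.615, median 0.191). The main tests did not use this pairing, which entered only as the replicate block among the alternatives. The blocked values changed no count at stationary phase by more than 1.5 times. Stationary phase columns were matched to groups by name.

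All 41 members are accounted for. Values per library are given for the called members with the most extreme changes and for the isoform pairs and HAP4. The members and lists were chosen with earlier results of these data known.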

Additional observations from a re-analysis of the deposited data

Results flagged for a closer look

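In Δsds3, the change of ATP20 against wild type differed between the phases. Its log2 fold change was 2.91 higher at stationary phase than at diauxic shift (limma interaction term, standard error 0.68, Benjamini-Hochberg adjusted p = 0.041). The normalized counts at diauxic shift were 951 and 172 in Δsds3 and 7825 and 4826 in wild type. Neither edgeR nor the fit without a filter on low reads called it, and these are the libraries of Δsds3 that differ most from each other.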

How the results depend on the processing

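TMM scaling and a pseudocount of 5 left every count of called members within 1.5 times its value and every median within the spread between replicates. The called results checked by gene were those of the most extreme members, the isoform pairs and HAP4. None of these changed direction under an alternative, but medians close to 0 did, as the values below show. Other named genes were not part of this check. Without a filter on low reads, the number of members called was 1 in Δtup1 and 7 in Δsds3 at diauxic shift and 0 in the Δsds3 interaction, and edgeR gave 7 and 0 for the last 2 of these. With the libraries of a phase fitted together, it was 0 in Δtup1 and 32 in Δsds3 at diauxic shift. With no fold minimum it was 11 in Δxbp1 at stationary phase. Without both Δsds3 libraries of diauxic shift, an alternative chosen after seeing the data, it was 23 in wild type, 19 in Δtup1, 35 in Δxbp1 and 21 in Δisw2 between the phases, and 5 in the Δtup1 interaction. The cause was not tested for any of these. At diauxic shift, the libraries paired by the replicate block deviated together in 6 of 10 pairs of groups. Under this block, the number of members called was 27 in Δsds3 and 1 in Δisw2 at diauxic shift. It was 0 in Δsds3 and 7 in Δisw2 between the phases, and 5 in the Δsds3 interaction. The block moved no other count by more than 1.5 times. SDH3, SDH4 and NDI1 lost their calls between the phases in wild type under the block (limma, adjusted p = 0.0671, 0.0928 and 0.0578). So did NDE1 in Δxbp1 and Δisw2 and YJL045W in Δisw2. Of the named results checked, 8 were weaker under the block and 33 were the same. With library B of both groups alone, the median of the members was 0.0326 in Δtup1 and 0.0332 in Δxbp1 at diauxic shift, 0.0117 in Δtup1 at stationary phase, -0.50 in wild type and -0.28 in Δtup1 between the phases, and -0.0126 in the Δtup1 interaction. With library A alone it was 0.17 in Δsds3 between the phases and 0.0401 in the Δisw2 interaction.

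Leaving out single libraries, the number of members called ranged from 1 to 3 in Δtup1, 3 to 37 in Δsds3, 0 to 0 in Δxbp1 and 0 to 0 in Δisw2 at diauxic shift. It ranged from 10 to 19 in Δtup1, 31 to 37 in Δsds3, 4 to 13 in Δxbp1 and 0 to 1 in Δisw2 at stationary phase. It ranged from 0 to 5 in wild type, 3 to 12 in Δtup1, 0 to 23 in Δsds3, 6 to 10 in Δxbp1 and 0 to 2 in Δisw2 between the phases. It ranged from 0 to 0 in Δtup1, 0 to 14 in Δsds3, 0 to 0 in Δxbp1 and 0 to 0 in Δisw2 in the interaction. The median ranged from -0.44 to 0.05 in Δtup1, -2.07 to -1.58 in Δsds3, -0.21 to 0.16 in Δxbp1 and -0.54 to -0.0816 in Δisw2 at diauxic shift. The median ranged from -0.0292 to 0.18 in Δtup1, -1.25 to -1.07 in Δsds3, -0.47 to -0.26 in Δxbp1 and -0.22 to -0.10 in Δisw2 at stationary phase. The median ranged from -0.88 to -0.54 in wild type, -0.78 to -0.33 in Δtup1, -0.22 to 0.06 in Δsds3, -1.20 to -0.94 in Δxbp1 and -0.84 to -0.41 in Δisw2 between the phases. The median ranged from -0.0345 to 0.28 in Δtup1, 0.43 to 0.82 in Δsds3, -0.54 to -0.10 in Δxbp1 and -0.051 to 0.28 in Δisw2 in the interaction. Depth limits library B of stationary phase most, and 2 libraries per group limit every test.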
